A study of Mus musculus with 18 samples.

Results

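The transcripts of 10 genes that restrain the cell cycle were followed in mouse splenic B cells as they left the resting state under LPS. The group holds 10 of the 16545 genes in the table and was chosen by gene name, with earlier results of these data known. It consists of the cyclin-dependent kinase (CDK) inhibitors Cdkn1a, Cdkn1b, Cdkn2a, Cdkn2c and Cdkn2d, the antiproliferative BTG/TOB genes Btg1, Btg2, Tob1 and Tob2, and the pocket protein gene Rbl2. All 10 were found in the table and passed the filter on genes listed at 0 in every comparison.

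The study purified total splenic B cells from C57BL/6 mice, cultured them with LPS, a TLR4 ligand from bacterial cell walls that triggers B cell activation, and sequenced RNA on D0, D1 and D2, here called 0 h, 24 h and 48 h. According to the methods, controls (CON) carried a heterozygous B cell Cre allele and the genotype Zbtb24 +/+, and Zbtb24 B-CKO mice carried the same Cre and Zbtb24 loxp/loxp, so that exon 2 with the start codon is removed only in the B lineage. All groups thus share the Cre. Each of the 6 groups (2 genotypes at 3 times) has 3 libraries, each from a single mouse according to the methods. Cells at 0 h, here called resting, were purified cells before LPS, and no group was cultured without LPS. The parts of LPS, culture and purification in a change from 0 h therefore cannot be told apart. Age and sex were not given for these libraries, and neither the labels nor the methods say whether a replicate number stands for the same mouse at all 3 times.

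Expression was deposited as FPKM, in which fragments are divided by transcript length and by the mapped total of a library. Such a table does not tell how many fragments stand behind a value, so that the precision of each value was judged from the 3 libraries of its group. FPKM are shares of a library's RNA. In such bulk samples, a lower share in every cell and fewer cells with the transcript cannot be told apart. Correlations between libraries of a group lay between 0.986 and 0.999, and the median SD of log2 values over genes was 0.16 to 0.17 at 0 h against 0.055 to 0.085 later, so that values at 0 h are the least precise. Libraries numbered 1 stood apart at 0 h in both genotypes. Of the 10 B cell markers, none was at 0 in all libraries of any group, and their summed level was 14400 to 17000 FPKM at 0 h, 4690 to 5980 FPKM at 24 h and 5850 to 6800 FPKM at 48 h, while the sum over 8 T cell markers was 9.28 to 34.4 FPKM across all libraries. The targeted gene Zbtb24 had a log2 difference between B-CKO and control libraries of -1.78 in resting cells (SE 0.16, adjusted p = 0.12, limma), of -0.64 at 24 h (SE 0.075, adjusted p = 0.0586) and of -0.50 at 48 h (SE 0.10, adjusted p = 0.267).

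A naive B cell sits in G0 and enters G1 when it is activated. Proteins of the CIP/KIP family (p21 from Cdkn1a, p27 from Cdkn1b) bind cyclin-CDK complexes, whereas INK4 proteins (p18 from Cdkn2c, p19INK4d from Cdkn2d) bind CDK4 and CDK6 and keep them from D-type cyclins. BTG and TOB proteins recruit the CCR4-NOT deadenylase to messenger RNA and speed its decay, and p130 from Rbl2 holds E2F target genes silent in G0 as part of the DREAM complex. Cdkn2a has separate first exons for p16INK4a and p19ARF. Its row is a single value for the gene, so the 2 products cannot be told apart here.

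Start-site sequences were examined because the members fell into genes that dropped and genes that climbed during stimulation. RefSeq start sites on GRCm38.p6 were matched for all 10 members, with 13 windows in total, and 250 bases upstream of each start were searched on both strands for 6 short motifs, none of which contains another. The FOXO motif GTAAACA, carried by 3.17% of the 32851 windows in the table, occurred in 1 member, Btg1. The palindromic cyclic AMP response element TGACGTCA, in 1.55% of all windows, occurred in 1 member, Btg2. The E2F motif TTCCCGC, in 3.82% of all windows, occurred at 3 members, Cdkn2a (the upstream start of 2), Cdkn2c (the upstream start of 2) and Tob2. CCAAT, in 33.8% of all windows, was present at Cdkn1b, Cdkn2d, Btg1, Btg2 and Tob1, and TTTGAA, the cell cycle homology region motif found in 16% of all windows, was present at Rbl2. The AP-1 motif TGACTCA, in 4.46% of all windows, was found at none of the 13. These matches describe letters and show no binding. The windows of 3 members are printed 5′ to 3′ on the strand of the gene because they hold the less common motifs next to the strongest fall (Btg1), another BTG gene that fell (Btg2) and an inhibitor that climbed (Cdkn2c). Capitals mark the FOXO match, which is on the opposite strand and starts 204 bases before the start of Btg1, the response element 166 bases before the start of Btg2, and the E2F motif 25 bases before the start of Cdkn2c. Coordinates are chr10:96616751-96617000 (plus strand) for Btg1, chr1:134079156-134079405 (minus strand) for Btg2 and chr4:109666757-109667006 (minus strand) for Cdkn2c.
Btg1: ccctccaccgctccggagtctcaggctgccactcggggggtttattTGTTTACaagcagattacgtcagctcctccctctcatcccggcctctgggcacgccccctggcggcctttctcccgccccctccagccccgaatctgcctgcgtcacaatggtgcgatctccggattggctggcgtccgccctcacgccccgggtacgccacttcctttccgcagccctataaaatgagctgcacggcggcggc
Btg2: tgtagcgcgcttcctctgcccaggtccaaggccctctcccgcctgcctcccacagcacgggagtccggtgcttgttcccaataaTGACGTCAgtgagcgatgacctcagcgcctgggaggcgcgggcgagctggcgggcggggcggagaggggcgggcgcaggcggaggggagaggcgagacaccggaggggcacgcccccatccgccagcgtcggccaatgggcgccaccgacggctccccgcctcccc
Cdkn2c: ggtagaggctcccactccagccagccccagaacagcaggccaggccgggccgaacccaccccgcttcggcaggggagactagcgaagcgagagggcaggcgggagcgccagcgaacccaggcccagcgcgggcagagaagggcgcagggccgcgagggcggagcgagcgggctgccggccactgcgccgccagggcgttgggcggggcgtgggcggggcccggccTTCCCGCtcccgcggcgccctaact

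**Figure D1:**
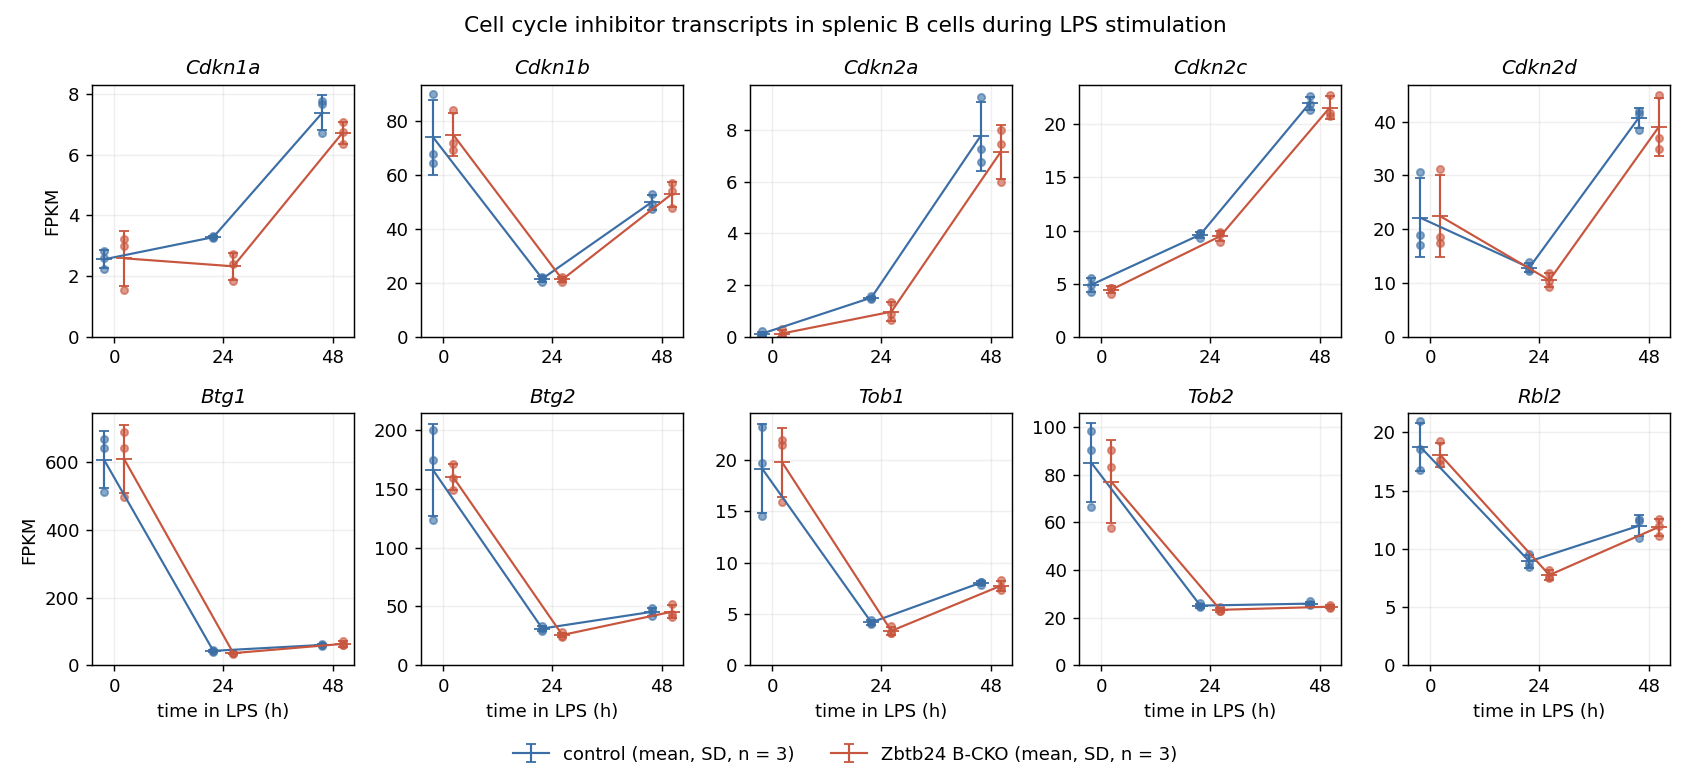
FPKM of the 10 genes in each library (points) by hours of LPS, with the group mean and SD (n = 3) for control and Zbtb24 B-CKO cells, each panel on its own linear axis from 0. The BTG/TOB genes, Rbl2 and Cdkn1b were below their resting mean at 24 h and 48 h, Cdkn2d was below it at 24 h and above it at 48 h, and Cdkn2a and Cdkn2c climbed at both steps.

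How these brakes change as control B cells respond to LPS was asked first. Between 0 h and 24 h, 9 of the 10 members passed the test (limma on log2(FPKM + 1), Benjamini-Hochberg adjusted over 15531 genes, threshold 0.05), with 7 lower and 2 higher. Among all genes tested, 57.4% passed, 30.7% lower and 26.7% higher, so most genes moved and a pass alone sets no member apart. The median difference of the members was -1.35 on the log2 scale, against -0.022 over all genes. Btg1, Btg2, Tob1, Tob2, Rbl2, Cdkn1b and Cdkn2d fell, Cdkn2a and Cdkn2c rose, and Cdkn1a did not pass. All 8 T cell markers tested fell over the same step, from a sum of 24.5 to 34.4 FPKM to one of 12.7 to 15 FPKM. Lck made up most of that sum, at 17.8 to 22.6 and then 11.2 to 13.3 FPKM. The other 7 summed to 6.65 to 12.7 and then 1.44 to 1.69 FPKM. Of 5 NK cell markers, 4 fell, from 7.52 to 14.1 FPKM to 0.47 to 0.61 FPKM. In all control libraries at 24 h, 1 of the 5 was at 0. The myeloid sum was 5.72 to 9.68 and then 4.98 to 5.54 FPKM, although Itgam was higher in every library at 24 h. The erythroid sum was 11.4 to 30.2 and then 8.37 to 10.2 FPKM, although Hbb-bt was higher. The part of other cells in the members' values was not tested.

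Btg1 was the most abundant of the 10 in resting cells and had the largest fall of them. Its FPKM in control libraries 1 to 3 was 511, 669 and 642 at 0 h, then 46.1, 39.6 and 42.0 at 24 h, then 60.8, 56.8 and 62.8 at 48 h. The 3 times did not overlap, and the mean at 24 h was 7.01% of that at 0 h. This fall was -3.80 on the log2 scale (SE 0.12, adjusted p = 6.17e-06). At 48 h Btg1 was higher than at 24 h by 0.49 (SE 0.063, adjusted p = 0.000955), which brought the mean to 9.90% of the resting level.

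Btg2, an immediate early and p53-responsive member of the same family, came next in abundance. Its values were 199.9, 175 and 123 FPKM at 0 h, 33.4, 29.1 and 31.2 at 24 h, then 45.9, 41.6 and 48.5 at 48 h. All libraries at 24 h lay below all others. The fall to 24 h was -2.35 (SE 0.18, adjusted p = 8.08e-05), and the later rise was 0.52 (SE 0.070, adjusted p = 0.00112), to 27.3% of the level at 0 h.

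Tob1 and Tob2 are paralogs that link messenger RNA to the deadenylase through the poly(A)-binding protein. Tob1 was measured at 23.2, 19.7 and 14.5 FPKM at 0 h, 4.45, 4.09 and 3.97 at 24 h, then 7.80, 8.13 and 8.15 at 48 h. Its fall was -1.94 (SE 0.17, adjusted p = 0.000145) and was followed by a rise of 0.80 (SE 0.060, adjusted p = 0.000116). Tob2 had 66.5, 98.3 and 90.6 FPKM at 0 h, 24.4, 24.8 and 25.9 at 24 h, then 25.5, 26.8 and 25.2 at 48 h. Unlike the other 9, Tob2 overlapped between 24 h and 48 h: after a fall of -1.71 (SE 0.15, adjusted p = 0.000133), the next step was 0.05 (95% interval -0.05 to 0.14, adjusted p = 0.418).

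Rbl2, the G0 pocket protein, fell less than the BTG/TOB genes. The 3 control libraries gave 20.9, 16.8 and 18.6 FPKM at 0 h, 9.56, 8.45 and 8.74 at 24 h, then 10.9, 12.4 and 12.6 at 48 h. No time overlapped with another. The change was -0.99 (SE 0.10, adjusted p = 0.000276) by 24 h and 0.39 (SE 0.071, adjusted p = 0.00445) from there to 48 h, so that 63.8% of the resting mean was present at 48 h.

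Within the CIP/KIP pair, the resting level of Cdkn1b was far above that of Cdkn1a. Cdkn1b had 89.7, 67.6 and 64.2 FPKM at 0 h, 21.9, 20.3 and 22.2 at 24 h, then 47.2, 49.3 and 52.8 at 48 h. It dropped to 29.1% of the resting mean and returned to 67.4%, with differences of -1.72 (SE 0.13, adjusted p = 8.45e-05) and 1.18 (SE 0.054, adjusted p = 2.82e-05). Without control library 1 or 2 at 48 h, the remaining deficit at 48 h against 0 h (-0.55, adjusted p = 0.0119) missed the threshold, with adjusted p = 0.0574 and 0.0517.

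Cdkn1a, a target of p53, was the only member without a passed change by 24 h. Its values were 2.24, 2.59 and 2.82 FPKM at 0 h, 3.31, 3.28 and 3.25 at 24 h, then 6.71, 7.78 and 7.67 at 48 h. The groups at 0 h and 24 h did not overlap, and the difference was 0.27 (SE 0.098, adjusted p = 0.0528). It passed with adjusted p = 0.0336 when genes averaging under 1 FPKM were left out and with 0.0206 without control library 3 at 0 h. From 24 h to 48 h, Cdkn1a rose by 0.97 (SE 0.070, adjusted p = 0.000101).

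Among the INK4 genes, Cdkn2a and Cdkn2c rose at each step. Cdkn2a was close to the lower end of the table in resting cells, at 0.21, 0.08 and 0.07 FPKM, and reached 1.5, 1.47 and 1.56 at 24 h and 6.76, 9.28 and 7.25 at 48 h. The gain was 1.17 (SE 0.061, adjusted p = 2.06e-05) and then 1.79 (SE 0.11, adjusted p = 6.44e-05) on the log2(FPKM + 1) scale, which understates ratios of values below 1 FPKM. With a pseudocount of 0.1 in place of 1 the same steps were 2.9 and 2.3, and both were called. Cdkn2c, which is also needed in the plasma cell lineage, had 4.19, 5.56 and 4.89 FPKM at 0 h, 9.81, 9.29 and 9.76 at 24 h, then 21.9, 21.4 and 22.7 at 48 h. It rose by 0.86 (SE 0.11, adjusted p = 0.000791) and by 1.11 (SE 0.042, adjusted p = 1.68e-05), to 450% of its resting mean.

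Cdkn2d, the remaining INK4 gene, dipped and then overshot. Its control values were 30.6, 17.0 and 18.9 FPKM at 0 h, 12.5, 12.2 and 13.8 at 24 h, then 41.5, 38.6 and 42.0 at 48 h. Library 1 at 0 h lay well above the other 2. The fall was -0.70 (SE 0.21, adjusted p = 0.0302) with all libraries and -0.45 (adjusted p = 0.00804) without that library, and it missed the threshold without control library 3 at 0 h (adjusted p = 0.06) or without library 1, 2 or 3 at 24 h (0.0997, 0.107 and 0.077). Leaving out library 1 at 0 h changed no call of any member in the time comparisons of either genotype. The rise of Cdkn2d from 24 h to 48 h was 1.59 (SE 0.057, adjusted p = 1.43e-05). At 48 h Cdkn2d stood at 184% of its resting mean, a difference of 0.89 (SE 0.21, adjusted p = 0.0099) that gave adjusted p = 0.0512 without control library 3 at 0 h.

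Over the second day, 9 of 10 members therefore rose and none fell, where 44.9% of the 15178 genes tested passed, 20.1% higher and 24.8% lower. Their median difference was 0.89 against -0.0047 over all genes. Of 6 plasma cell markers, 5 also rose over this step (Prdm1, Xbp1, Jchain, Mzb1 and Sdc1) and Irf4 did not pass. The sum over the 6, most of it Mzb1, went from 404 to 450 FPKM at 24 h to 636 to 944 FPKM at 48 h, with none at 0 in all libraries of a group, and its part in the rises of the members was not tested. From 0 h to 48 h, all 10 passed (background 56.8% of 15584 genes, 26.5% higher and 30.3% lower), with Cdkn1a, Cdkn2a, Cdkn2c and Cdkn2d higher and the other 6 lower. These comparisons share libraries, so they are not separate lines of evidence.

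The order of abundance changed accordingly. FPKM is scaled to transcript length, which allows levels of different genes to be set side by side. At 0 h in control cells, the means ran from 607 FPKM for Btg1, 166 for Btg2, 85.1 for Tob2 and 73.8 for Cdkn1b down to 22.1 for Cdkn2d, 19.1 for Tob1, 18.8 for Rbl2, 4.88 for Cdkn2c, 2.55 for Cdkn1a and 0.12 for Cdkn2a. The libraries of Tob2 and Cdkn1b overlapped, as did those of Cdkn2d and Tob1 and those of Tob1 and Rbl2. By 48 h the order was Btg1 (60.1 FPKM), Cdkn1b (49.8), Btg2 (45.3), Cdkn2d (40.7), Tob2 (25.9), Cdkn2c (22.0), Rbl2 (12), Tob1 (8.03), Cdkn2a (7.76) and Cdkn1a (7.39). Neighbours overlapped for Cdkn1b and Btg2, for Btg2 and Cdkn2d, for Tob1 and Cdkn2a, and for Cdkn2a and Cdkn1a.

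**Figure D2:**
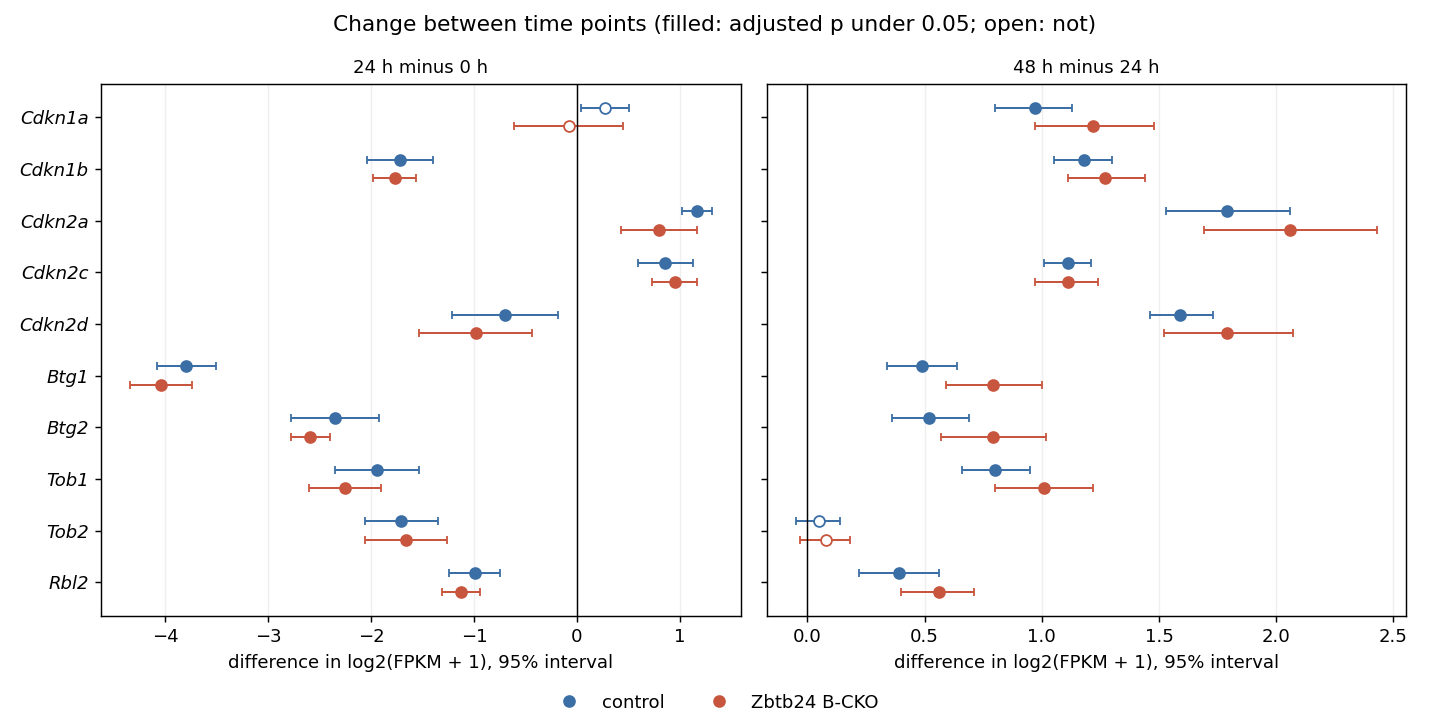
Differences in log2(FPKM + 1) from 0 h to 24 h and from 24 h to 48 h for each gene in control and Zbtb24 B-CKO cells, with 95% intervals from limma (3 libraries per group); filled points passed at adjusted p under 0.05. Cdkn1a at the first step and Tob2 at the second were open in both genotypes, and the intervals of the 2 genotypes overlapped for every gene.

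The same course was measured in Zbtb24 B-CKO cells. Between 0 h and 24 h, 9 of 10 members passed, with 7 lower and 2 higher, where 59.8% of 15551 genes passed, 27.5% higher and 32.3% lower. The 8 T cell markers summed to 23.1 to 30.8 FPKM at 0 h and 10.1 to 11.6 FPKM at 24 h in B-CKO cells. Lck alone was 16.2 to 20.9 and then 8.24 to 9.31 FPKM. The other 7 summed to 6.88 to 9.95 and then 1.8 to 2.41 FPKM. For the 5 NK cell markers the sums were 5.99 to 16.3 FPKM and 0.5 to 0.75 FPKM. Whether these markers have a part in the B-CKO values of the members was not tested. The B-CKO values of Btg1 were 497, 644 and 689.8 FPKM at 0 h, 37.6, 35.3 and 34.6 at 24 h, then 58.7, 58.5 and 72.2 at 48 h. Its fall was -4.04 (SE 0.13, adjusted p = 3.18e-06), and its mean at 24 h was 5.87% of that at 0 h. Cdkn1b in B-CKO cells went from 83.9, 71.6 and 69.0 FPKM to 21.5, 20.1 and 21.9 and then to 47.8, 53.8 and 56.8, close to the control course. Cdkn1a in B-CKO cells, at 1.54, 2.99 and 3.22 FPKM at 0 h and 2.40, 2.71 and 1.85 at 24 h, overlapped between the times (-0.08, 95% interval -0.61 to 0.45, adjusted p = 0.766).

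From 24 h to 48 h in B-CKO cells, 9 members rose (background 45.7% of 15253 genes, 21.7% higher and 24% lower) and Tob2 again did not pass (0.08, 95% interval -0.03 to 0.18, adjusted p = 0.201). The 6 plasma cell markers summed to 430 to 450 FPKM at 24 h and 779 to 906 FPKM at 48 h in B-CKO cells, with 4 higher and Irf4 lower. The rises of Cdkn2a (2.06, SE 0.16) and Cdkn2d (1.79, SE 0.12) were the largest among the members. By 48 h all 10 differed from 0 h in the same directions as in control cells (background 57.6% of 15695 genes, 27% higher and 30.7% lower). For Cdkn2d that last difference (0.81, adjusted p = 0.0195) missed the threshold when B-CKO library 2 or 3 at 0 h or any B-CKO library at 48 h was left out, with adjusted p from 0.053 to 0.0938.

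Whether Zbtb24 deletion alters these genes was asked at each time. In resting cells no member passed, none was at an unadjusted p under 0.05, and the libraries of the 2 genotypes overlapped for all 10 (background 0% called, 2% at an unadjusted p under 0.05 and 3.87% without overlap, of 15641 genes; limma). Log2 differences between B-CKO and control ranged from -0.15 for Tob2 (95% interval -0.67 to 0.37) to 0.05 for Tob1 (-0.43 to 0.54), and the widest interval was that of Cdkn2d (-0.69 to 0.72). These intervals are from the fit that does not pair libraries by number, although same-numbered libraries deviated together at 0 h. B-CKO library 1 resembled control library 1: Cdkn2d was 31.2, 17.5 and 18.6 FPKM in B-CKO libraries 1 to 3, and Tob2 was 57.5, 83.2 and 90.5. Without both libraries numbered 1, an alternative added after the data were seen, no member passed either.

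At 24 h all 10 members had negative differences and none passed at an adjusted p under 0.05 (background 0.0993% of 15104 genes, 15 in all). For 8 members the 3 B-CKO libraries lay below the 3 control libraries with no overlap, and the same 8 had an unadjusted p under 0.05 with limma. Among all genes, 11.7% were lower without overlap and 9.51% were lower at an unadjusted p under 0.05. Both shares are over all genes tested, including those averaging under 1 FPKM. No share among genes of like level was computed. The median difference of the members was -0.25, against -0.0046 over all genes. The members were measured in the same libraries, so their differences at 24 h are not independent of each other.

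**Figure D3:**
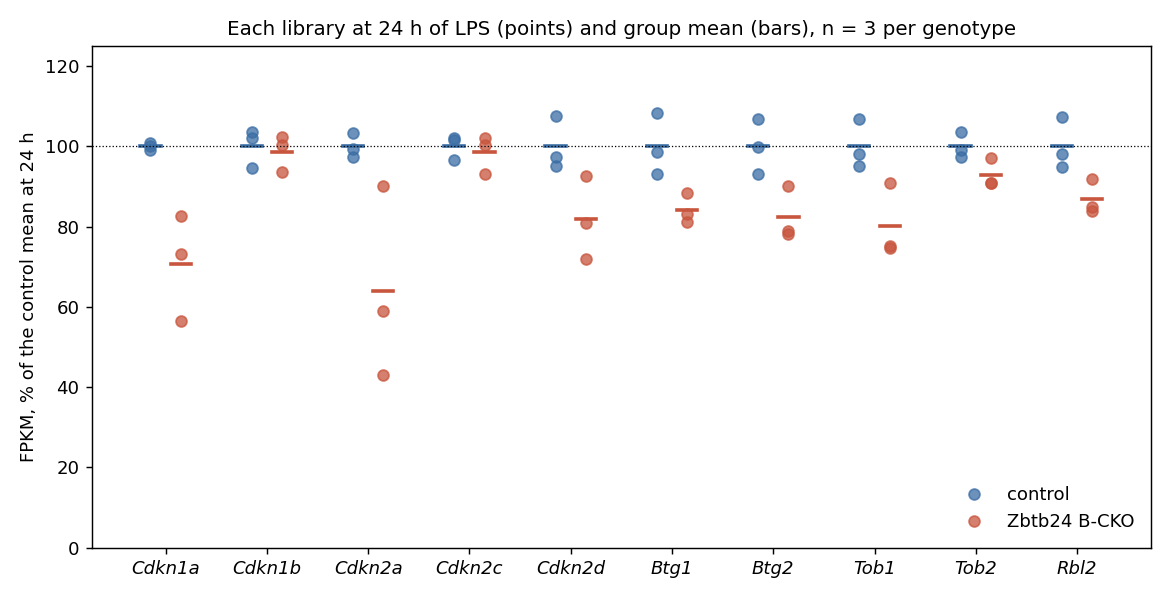
FPKM at 24 h of LPS in each library (points) and group means (bars) as a percentage of the control mean of the gene, for 3 control and 3 Zbtb24 B-CKO libraries. The B-CKO libraries lay below all control libraries for every gene except Cdkn1b and Cdkn2c.

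The lower values at 24 h spanned the families. Btg1 was 37.6, 35.3 and 34.6 FPKM in B-CKO against 46.1, 39.6 and 42.0 in control libraries (-0.24, SE 0.059, adjusted p = 0.135). Btg2 was 28.2, 24.4 and 24.6 against 33.4, 29.1 and 31.2 (-0.27, SE 0.069, adjusted p = 0.142). When genes averaging under 1 FPKM were left out, Btg1 and Btg2 passed, with adjusted p = 0.0444 and 0.0458, and the number of genes called overall went from 15 to 388.

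Tob1 read 3.11, 3.13 and 3.79 FPKM in B-CKO against 4.45, 4.09 and 3.97 in control libraries (-0.25, SE 0.081, adjusted p = 0.198). For Tob2 the gap was narrow, 24.3, 22.8 and 22.7 against 24.4, 24.8 and 25.9 (-0.10, SE 0.039, adjusted p = 0.265). Rbl2 had 8.20, 7.56 and 7.47 against 9.56, 8.45 and 8.74 (-0.18, SE 0.060, adjusted p = 0.21). In each of these genes the highest B-CKO library came close to the lowest control library.

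Of the CDK inhibitors, Cdkn1a had 2.40, 2.71 and 1.85 FPKM in B-CKO and 3.31, 3.28 and 3.25 in control libraries (-0.37, SE 0.10, adjusted p = 0.15). Cdkn2a had 0.89, 0.65 and 1.36 against 1.5, 1.47 and 1.56 (-0.37, SE 0.12, adjusted p = 0.214; with a pseudocount of 0.1, -0.65, adjusted p = 0.233). Both had control libraries that were close together and B-CKO libraries that were spread. Cdkn2d had 10.4, 9.24 and 11.9 against 12.5, 12.2 and 13.8 (-0.27, SE 0.090, adjusted p = 0.208). Cdkn1b (-0.02, 95% interval -0.13 to 0.10) and Cdkn2c (-0.02, -0.14 to 0.10) overlapped between genotypes, with intervals that leave room for a change of about 0.1 on the log2 scale in either direction.

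Values outside the group were also compared between the genotypes at 24 h. The summed level of the 10 B cell markers was 4690 to 4830 FPKM in B-CKO and 5420 to 5980 FPKM in control libraries, with 6 of the 10 at an unadjusted p under 0.05, all of them lower and 1 of them called. Of the 8 T cell markers, Lck had 8.24 to 9.31 against 11.2 to 13.3 FPKM, and the other 7 summed to 1.8 to 2.41 against 1.44 to 1.69 FPKM. The median difference of 18 proliferation genes was 0.13, with 7 of them at an unadjusted p under 0.05, all of those higher, and none called. Whether these play a part in the values of the 10 members was not tested.

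At 48 h no member passed, none was at an unadjusted p under 0.05, and all 10 overlapped between genotypes (background 0.046% called, 7.71% at an unadjusted p under 0.05 and 11.1% without overlap, of 15210 genes). Differences ranged from -0.12 for Cdkn1a (95% interval -0.30 to 0.07) to 0.08 for Cdkn1b (-0.09 to 0.25). Btg1 in B-CKO cells, at 58.7, 58.5 and 72.2 FPKM, overlapped with 60.8, 56.8 and 62.8 in control cells. Cdkn2a, which had the widest interval (-0.43 to 0.22), was 8.01, 5.98 and 7.44 against 6.76, 9.28 and 7.25.

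**Figure D4:**
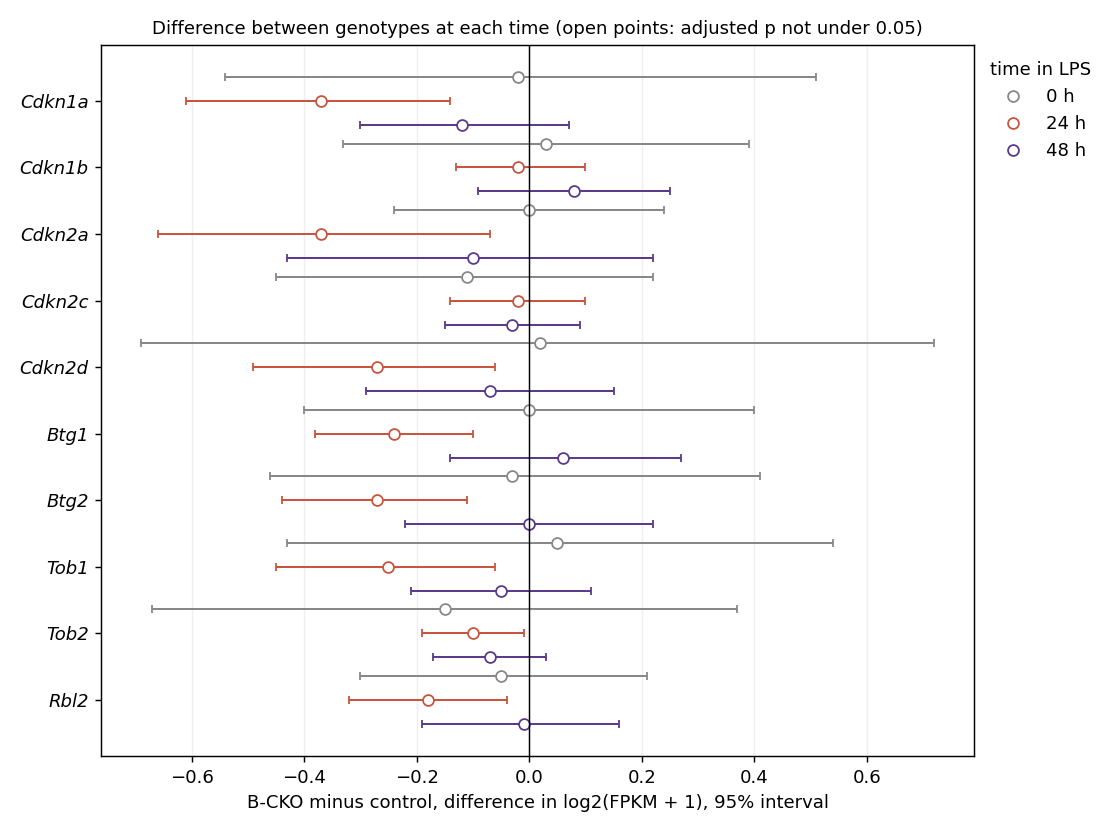
Difference between Zbtb24 B-CKO and control cells in log2(FPKM + 1) for each gene at 0 h, 24 h and 48 h, with 95% intervals from limma (3 libraries per group). All points are open because none passed at adjusted p under 0.05; the intervals at 24 h lie below 0 for 8 genes, and those at 0 h and 48 h include 0 for all 10.

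The change of the genotype difference over time was tested directly. From 0 h to 24 h no member passed the interaction test (0% of 16182 genes called, 2.89% at an unadjusted p under 0.05) and none was at an unadjusted p under 0.05. From 24 h to 48 h none passed either (0% of 15844 genes, 7.31% at an unadjusted p under 0.05), and 1 member, Btg1, had an unadjusted p of 0.0244 from limma (0.30, SE 0.12, adjusted p = 0.623). The B-CKO and control rises of Btg1 over that step were 0.79 and 0.49. Thus a difference at 24 h that is absent at the other times was not shown for any member by a test of the change itself.

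The partners of these brakes were described from lists of other genes in the same pathways, whose counts are to be read against the 26.7% of all genes that passed as higher and the 30.7% that passed as lower between 0 h and 24 h in control cells. In control cells from 0 h to 24 h, 9 of 10 cyclin and CDK genes held in check by the inhibitors passed as higher, with Ccnd2 (3.67), Cdk4 (2.16), Cdk1 (3.60) and Ccne2 (2.40) having the smallest p, while Ccnd1 fell by 0.41. All 18 proliferation genes rose, with a median of 2.92, among them the replication helicase genes Mcm3 (3.20), Mcm2 (2.54) and Mcm7 (2.88) and Mcm6 (3.13). Of 14 FOXO, KLF and other quiescence regulators, 13 fell and 1, Slfn2, rose, with a median of -1.85. The transcription factor gene Klf2 fell by 3.51, Klf6 by 4.88 and Foxo4 by 1.76, and Txnip, which restrains glucose uptake, fell by 3.08.

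Among 12 genes of the CCR4-NOT deadenylase and its poly(A)-binding partner, 4 rose and 1 fell, with a median of 0.12, and the share that passed was not above the 57.4% of all genes. Cnot9 (1.46), Pabpc1 (0.96) and Cnot11 (0.44) rose and Cnot2 fell by 0.19. Of 11 DREAM and E2F partners of Rbl2, 5 rose, including Tfdp1 (3.20), Rbbp4 (1.1), Rbl1 (0.94) and E2f4 (1.01), and 2 fell, a share near that of all genes. In a list drawn up around the ubiquitin ligases of p27 and p21, not all of it specific to these proteins, 7 of 9 genes rose and 1 fell. Cks1b rose by 3.31, Ddb1 by 1.13, Dtl by 3.46 and Skp1 by 0.82.

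The p53 gene and 12 targets other than Cdkn1a split, with 7 higher and 5 lower. Phlda3 (1.73) and Bax (0.96) rose, and Pmaip1 fell by 2.55 and Sesn1 by 2.23. Of the other CDK inhibitors and BTG genes, 4 of 5 were tested, and Cdkn3 (2.21) rose and Cdkn1c fell by 0.54. Thus genes that share a regulator or family with a member did not all share its direction.

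In these same lists at 24 h between genotypes, no gene was called, and the numbers at an unadjusted p under 0.05 were 3 of 10 cyclin and CDK genes, 2 of 11 DREAM partners, 2 of 12 deadenylase genes, 5 of 14 FOXO and KLF regulators, 4 of 13 p53 genes, 1 of 9 ubiquitin ligase genes and none of 4 other inhibitors. The list medians were 0.11, 0.03, 0.00, -0.14, -0.10, 0.05 and 0.03 in that order. At that threshold the FOXO and KLF regulators and the p53 genes were all lower. The cyclin and CDK genes, the DREAM partners and the ubiquitin ligase gene were all higher, and the deadenylase genes went both ways. The background at that threshold was 16.3% of genes in either direction and 9.51% lower.

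Across the 18 libraries, members that shared a time course were correlated, which describes the shared time points and libraries and not regulation. Pearson's r of log2(FPKM + 1) between Btg1 and Btg2 was 0.98, between Btg1 and Tob2 0.98, and between Cdkn2a and Cdkn2c 0.98, while it was -0.73 between Btg1 and Cdkn2c. Cdkn1b was closest to Tob1 and Rbl2 among the members (0.94 for each). Cdkn2d, with its dip and overshoot, had at most 0.69 with any other member.

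Among 9997 genes averaging 1 FPKM or more, the 2 most like each member were listed by the same measure over the 18 libraries. For Btg1 they were H2-DMb1 (0.998), an MHC class II loading gene, and Gadd45a (0.997), a stress and growth arrest gene. Btg2 was most like Ciita (0.994), the class II transactivator, and Slc15a4 (0.993). Cdkn2c was most like the glycolytic gene Pgk1 (0.993) and the mitotic cyclin gene Ccnb2 (0.993), and Cdkn2a was most like Pfkp (0.988), another glycolytic gene, and Prelid1 (0.988). The pairs for the others were Smim3 (0.956) and Egln3 (0.951) for Cdkn1a, Snx14 (0.990) and Wdtc1 (0.988) for Cdkn1b, Stk38 (0.977) and Asah1 (0.976) for Cdkn2d, Ip6k1 and Rasgrp2 (0.992 each) for Tob1, Nedd9 and Plaur (0.996 each) for Tob2, and Sft2d2 (0.992) and Psap (0.989) for Rbl2.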

How the data were processed

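RNA-seq values of 18 splenic B cell libraries were used (3 control and 3 Zbtb24 B-CKO at each of 0 h, 24 h and 48 h). The authors deposited FPKM with 2 decimals, scaled for transcript length and library size, for 16545 genes listed by NCBI gene ID. The submitters' processing notes name BWA, Bowtie2, RSEM, DESeq2 and the build mm10, without versions. Of the IDs, 16512 were matched to symbols in RefSeq. A called gene is not reported here.

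The deposited FPKM were transformed to log2(FPKM + 1) and compared by limma 3.58.1 in R 4.3.3 (lmFit, eBayes with a trend) on the libraries compared, since the count test of the authors needs counts. Genes at 0 in all compared libraries were left out, and p-values were adjusted by Benjamini-Hochberg over all genes tested (threshold 0.05). P-values measure the spread between 3 libraries per group. The members and the pathway and marker lists were chosen with earlier results of these data known. From each pathway list, at most 4 called genes with the smallest adjusted p in the control 24 h versus 0 h comparison were named. Ccnd1 and Slfn2, the exceptions in their lists, were named after their values were seen. Same-numbered control and B-CKO libraries deviated together at 0 h (r = 0.854, 0.468 and 0.789 over 9997 genes), so the numbers pair the samples there by this check, although no source says what a number stands for. B-CKO libraries at 24 h and 48 h also did so (0.126, 0.183 and 0.117). All other comparisons had at least 1 pair at or under 0.1.

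Alternatives were a pseudocount of 0.1, a filter at a mean of 1 FPKM, TPM, median-ratio scaling, the replicate block, 1 fit of all 18 libraries and leaving out each library in turn. On simulated data with 200 changed genes, the fit for the genotypes at 24 h recovered 93.3% of 75 genes changed by 1.5-fold among 15104 tested, with 11 of 205 calls false, that at 0 h recovered 12.8% of 78 such genes among 15638, with 8 of 120 false, and that for control 24 h versus 0 h recovered 63.3% of 49 among 15530, with 37 of 208 false. The interaction from 0 h to 24 h recovered 50.7% of 69 such genes among 16182, with 37 of 186 false. Promoter windows were searched in Python 3.11.15 with pandas 2.3.3, and figures were drawn with matplotlib 3.10.9.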

Additional observations from a re-analysis of the deposited data

How the results depend on the processing

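Of 56 called differences of single members, all kept their direction in 670 values under the alternatives and 658 also kept their call. The 12 that lost it all came from leaving out 1 library, for Cdkn2d (control 24 h versus 0 h, -0.86 to -0.45, and 48 h versus 0 h, 0.73 to 1.1; B-CKO 48 h versus 0 h, 0.66 to 1.1) and for Cdkn1b (control 48 h versus 0 h, -0.64 to -0.40). With a pseudocount of 0.1, Cdkn2a for 24 h versus 0 h was 2.9 in control and 2.4 in B-CKO cells, and for 48 h versus 0 h it was 5.2 in both, all still called, and its genotype difference at 24 h, not called, was -0.65. The number of members called between genotypes at 24 h was 0 and became 2 with the filter at a mean of 1 FPKM. That filter leaves fewer genes tested and also refits the eBayes trend without genes of low level. Which of these changed the calls was not tested. With the replicate block, the number of members called was unchanged in all comparisons, for example 9 for control 24 h versus 0 h and 0 at each time between genotypes, and the block changed no other call. Differences that had not passed and lay near 0 changed sign. Btg1 between genotypes at 0 h was -0.011 with TPM, Cdkn1b at 24 h was 0.0026 and Btg2 at 48 h was 0.008 with median-ratio scaling, and without both libraries numbered 1 at 0 h Cdkn1a was 0.15 and Btg2 was 0.17. When each library was left out in turn, the ranges that crossed 0 between genotypes at 0 h were -0.15 to 0.21 for Cdkn1a, -0.063 to 0.18 for Cdkn1b, -0.11 to 0.078 for Cdkn2a, -0.24 to 0.26 for Cdkn2d, -0.12 to 0.14 for Btg1, -0.22 to 0.12 for Btg2, -0.12 to 0.20 for Tob1, -0.31 to 0.047 for Tob2 and -0.12 to 0.03 for Rbl2. At 24 h they were -0.056 to 0.018 for Cdkn1b and -0.045 to 0.016 for Cdkn2c. At 48 h they were -0.19 to 0.017 for Cdkn2a, -0.17 to 0.0061 for Cdkn2d, -0.036 to 0.11 for Btg1, -0.095 to 0.066 for Btg2 and -0.07 to 0.033 for Rbl2. Cdkn1a in B-CKO 24 h versus 0 h ranged from -0.31 to 0.052, the interaction from 0 h to 24 h from -0.19 to 0.045 for Cdkn1b and from -0.15 to 0.21 for Tob2, and that from 24 h to 48 h from -0.044 to 0.018 for Cdkn2c. The cause of these changes was not tested. A pseudocount of 0.1 moved the median of all genes to -0.111 (control) and -0.114 (B-CKO) for 24 h versus 0 h, from -0.022 and -0.021; no scaling moved it by more than 0.1. The FPKM table gives no fragment counts, so low values such as Cdkn2a at 0 h have unknown counting error.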
